A study of Mus musculus with 40 samples.

Results

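The genes described here encode proteins of the postsynaptic density, the protein mat under the membrane that receives synaptic input. They are 40 named genes of scaffold proteins, kinases with their anchors, regulators of small GTPases and organisers of spine actin, out of 19358 genes in the RNA tables. They were chosen by name. Their m6A and RNA were read in midbrain of 4 groups of male mice. These were aSyn Tg mice, homozygous for [A30P] aSyn driven by the Thy-1 promoter, at 15 mo and at 3 mo, and Wt C57BL/6J littermates at 15 mo and at 3 mo. The promoter is active in many neuron types, so the transgene is not limited to dopaminergic cells. The labels list 5 input and 5 immunoprecipitated (meRIP) samples for each group, 40 in all. The tables hold 19 input libraries, 4 of Wt at 3 mo and 5 of each other group, while m6A is given as 1 list of peaks for each group, with no value for single animals.

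At an excitatory synapse, Dlg proteins hold receptors and channels, Dlgap proteins tie them to Shank, and Shank binds Homer and the actin skeleton. CaM kinase II is the abundant kinase of this structure, and many of its transcripts and those of the scaffolds are carried into dendrites and translated there. N6-methyladenosine (m6A) is a methyl mark on adenosines within the consensus DRACH (A, G or T, then A or G, then AC, then A, C or T), often GGAC. It is read by proteins that act on the decay, transport and translation of a transcript, and it is known to be enriched near stop codons and in long internal exons.

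The sequences below are from regions in which the immunoprecipitated signal of a postsynaptic transcript differed between groups, and were chosen as examples of lost regions and of gained regions on the same or other transcripts, not by the size of the change. Each is 25 bases of the transcribed strand, 5′ to 3′, from the mouse genome mm10 (GRCm38). The 5 capitals are the motif match nearest the middle of the region, GGACT where there was one, otherwise GGAC with the base after it, otherwise another DRACH match. MeRIP does not resolve single bases, so a match is a description of the region and not a methylated position.
Shank3, lost, first region: tcatactgcaGGACTctgcgccaga
Shank3, lost, next region: agcaatcctcGGACAgtgagctcat
Dlg4, lost: cccccaacatGGACTgtctctgtat
Ctnnd2, lost: ccgatccgcgTGACCtcgcccccca
Ppp1r9a, lost: ctgagaacgaGGACAtgttttcccc
Begain, lost: aagagctggaGGACAagctgtaccg
Begain, gained: ggctttgctcGGACTgtgtctccgt
Iqsec1, gained and lost: cccactgcatGGACAtcatgcacag
Iqsec1, gained: caaggaagggGGACTgtgctgcatg
Camk2g, gained: ttctaggagtGGACTtcgtcagacc
Shank1, gained: agggcgcttgGGACTagtggaaatt

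Both Shank3 windows lie in coding sequence, at chr15:89547953-89547977 and chr15:89549582-89549606 on the plus strand. The Dlg4 region is centred in the 5′ UTR, while its window, at chr11:70018912-70018936 (plus), spans the start of the coding sequence. The Ctnnd2 window is in coding sequence at chr15:30647129-30647153 (plus), where the region lost with age holds no GGAC and a single DRACH match. Printed above as lost, the Ctnnd2 window also lies in a region that was gained in aSyn Tg against Wt at 3 mo. The Ppp1r9a window is in coding sequence at chr6:5100520-5100544 (plus). On Begain, read from the minus strand, the lost window is at chr12:109037657-109037681 and the gained window at chr12:109033667-109033691, both in coding sequence. On Iqsec1, also minus, the window of the region that was gained in one comparison and lost in another is at chr6:90662722-90662746, in an exon outside the transcript used for positions, and the gained window is at chr6:90660458-90660482 in the 3′ UTR. The Camk2g window is in the 3′ UTR at chr14:20736346-20736370 (minus), and the Shank1 window in the long coding exon at chr7:44354154-44354178 (plus).

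Most of these transcripts carried listed peaks in every group. Of the 40 genes, aSyn Tg at 15 mo had a peak on 34, aSyn Tg at 3 mo on 35, Wt at 15 mo on 35 and Wt at 3 mo on 32. Among the 10907 genes kept at a mean input count of 50 or more, a peak was listed for 52.6%, 52.2%, 54.5% and 54.1% of genes in the same order. Peaks are listed more often on well-covered transcripts, so the genes were also set beside the 1858 other genes whose mean input count lay between their quartiles, 493 and 1317 reads. Of those genes, 67.7%, 68.8%, 70.2% and 69.2% had a peak, against 85%, 87.5%, 87.5% and 80% of the 40. The median transcript was 5156 nt long for the 40 and 4648 nt for these comparison genes, and the part of length in this difference was not tested. The 40 genes themselves were not limited to this range of reads, so they are not matched to the comparison genes in input count. Cyfip1, a subunit of the WAVE actin complex, Gphn (gephyrin, the scaffold of inhibitory synapses) and Homer2 had no peak in any list. Homer3 was the only one of the 40 with a mean input count under 50, at 43.3 reads.

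The peaks were numerous but of moderate strength. Counted over the 40 genes, the list of aSyn Tg at 15 mo held 85 peaks, that of aSyn Tg at 3 mo 95, that of Wt at 15 mo 96 and that of Wt at 3 mo 89. Fold enrichment, the ratio of immunoprecipitated to input reads in a peak, had a median of 4.30, 4.05, 3.91 and 3.81 over these peaks, below the 5.22, 4.74, 4.94 and 4.70 of all peaks in the lists. Per gene with a peak, they had 2.5, 2.71, 2.74 and 2.78 peaks on average, against 2.2, 2.30, 2.33 and 2.27 for the comparison genes. Their strongest peak had a median fold enrichment of 7.05, 5.38, 6.40 and 6.22, against 6.13, 5.56, 5.70 and 5.35.

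Joined by overlap across the lists, the peaks formed 103 sites on 37 genes. Of these, 66 sites were listed in every group, 9 in 3 groups, 8 in 2 and 20 in 1. The 66 common sites had a median top fold enrichment of 5.58, and the 20 sites of a single list 2.45. The share of sites found in every group was 64.1%, against 66.2% of 3339 sites on the comparison genes. Shank2 had the most sites, 8, followed by Dlgap3 and Agap2 with 7 each, and Shank1 and Ppp1r9b with 6 each.

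**Figure D1:**
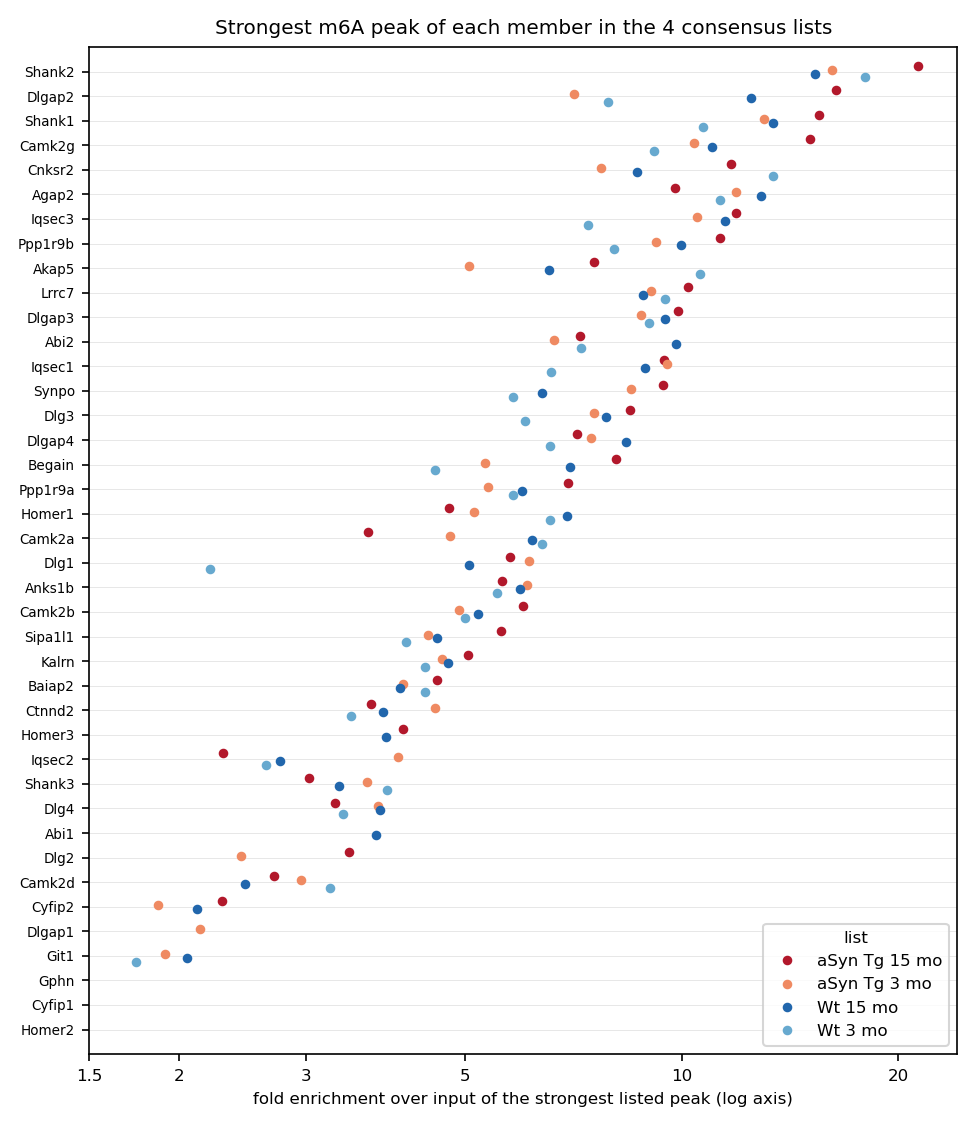
Fold enrichment over input (log axis) of the strongest listed peak of each of the 40 genes, 1 point for each group in whose list the gene had a peak. Shank2 stands at the top in every group, between 15.3 and 21.3, and Gphn, Cyfip1 and Homer2 have no point.

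Among the scaffolds that stack on Dlg proteins, Shank2 had the strongest site of all. Its centre lies in coding sequence 215 nt before the stop codon, and the site, 689 nt wide (chr7:144420573-144421261), runs past that codon. It reached a fold enrichment of 21.3 in aSyn Tg at 15 mo, 16.2 in aSyn Tg at 3 mo, 15.3 in Wt at 15 mo and 18 in Wt at 3 mo. Shank1 carried a site of 4884 nt with 28 GGAC matches, which ran from coding sequence past the stop codon. It had values of 15.5, 13.0, 13.4 and 10.7 in that order. Shank3 was far weaker. Its first site had 2.43 in aSyn Tg at 15 mo and 3.5 at 3 mo, against 3.34 in Wt at 15 mo and 3.89 in Wt at 3 mo, and its site 3 was listed in every group except aSyn Tg at 15 mo.

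Of the Dlg genes, Dlg3 and Dlg1 had the stronger sites. The Dlg3 site in the 3′ UTR had 8.47, 7.54, 7.85 and 6.05 in the order aSyn Tg at 15 mo and 3 mo, Wt at 15 mo and 3 mo, and the Dlg1 site in the 5′ UTR had 5.77, 6.14, 5.06 and 2.21. Dlg4, which encodes PSD-95, had a site at its stop codon of 3.29, 3.78, 3.80 and 3.38 and a second one in the 5′ UTR that was listed in Wt at 15 mo alone, at 2.15. The peak under the name Dlg2 (chr7:90476732-90476851) carries a second gene identifier of that name and was listed for aSyn Tg at 15 mo, with 3.45, and at 3 mo, with 2.44. Dlgap2 had a site at the stop codon that was higher in both lists at 15 mo, with 16.4 in aSyn Tg at 15 mo against 7.09 at 3 mo, and 12.5 in Wt at 15 mo and 7.90 in Wt at 3 mo.

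The kinases and their anchors differed widely. Camk2g, a CaM kinase II subunit found in many tissues, had a 3′ UTR site of 15.1 in aSyn Tg at 15 mo against 10.4 at 3 mo, with 11.0 in Wt at 15 mo and 9.16 in Wt at 3 mo. Camk2a, the main subunit of forebrain synapses, had a 3′ UTR site of 3.66, 4.76, 6.18 and 6.39 in the same order, so both aSyn Tg lists lay below both Wt lists. Akap5, which anchors protein kinase A, had 7.52, 4.32, 6.53 and 10.6 at its stop codon. Lrrc7 (densin) had a coding site of 10.2, 9.07, 8.83 and 9.47.

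Among regulators of small GTPases and of spine actin, Cnksr2, Iqsec3, Agap2 and Ppp1r9b had sites above 10. Cnksr2 had 11.7 in aSyn Tg at 15 mo against 7.72 at 3 mo, with 8.66 in Wt at 15 mo and 13.4 in Wt at 3 mo. Iqsec3, an exchange factor for Arf GTPases, had 11.9, 10.5, 11.5 and 7.41 at its second site in that order, so Wt at 3 mo was lowest. Ppp1r9b (spinophilin), which binds actin and protein phosphatase 1, had 11.3, 9.20, 9.99 and 8.05 at its first site. Agap2 went the other way at a site centred in the 3′ UTR. This site had 8.87 in aSyn Tg at 15 mo as the lowest value, 11.9 in aSyn Tg at 3 mo, 12.9 in Wt at 15 mo and 11.3 in Wt at 3 mo.

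Read across the 66 common sites, aSyn Tg at 15 mo had the highest value at 26 sites and the lowest at 21. aSyn Tg at 3 mo was highest at 18 and lowest at 11, Wt at 15 mo highest at 12 and lowest at 7, and Wt at 3 mo highest at 10 and lowest at 27. On the comparison genes, aSyn Tg at 15 mo was highest at 40.6% and lowest at 17.0% of 2209 common sites, while on the 40 genes these shares were 39.4% and 31.8%. Lows of aSyn Tg at 15 mo were more frequent at strong and at weak sites. Of the 31 common sites with a mean fold enrichment of at least 5, aSyn Tg at 15 mo was highest at 16 and lowest at 8, and of the 35 weaker ones it was highest at 10 and lowest at 13. It was thus lowest at 25.8% of the stronger and 37.1% of the weaker sites, against 10.3% and 22.7% on the comparison genes. Each group gives a single value for a site, so these orders have no error and were not tested.

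**Figure D2:**
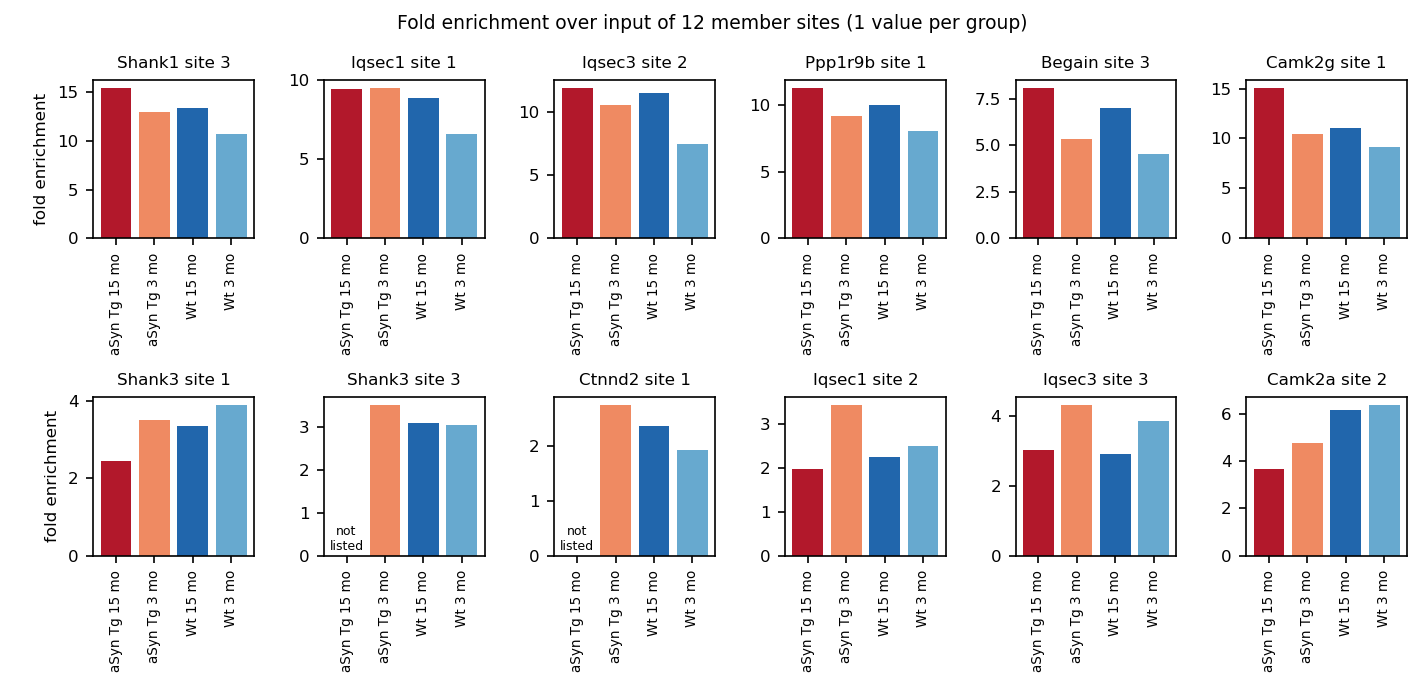
Fold enrichment over input of 12 sites, 1 bar for each group, with each vertical axis starting at 0. The upper row holds strong sites on which aSyn Tg at 15 mo was the highest group, except at Iqsec1 site 1, and the lower row weaker sites on which aSyn Tg at 15 mo was lowest or not listed, except at Iqsec3 site 3, where 3.01 lies just above the 2.91 of Wt at 15 mo.

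By position, coding sequence held more of these peaks than of all peaks. Their centres fell in coding sequence for 44.7%, 43.2%, 47.9% and 53.9% of peaks in aSyn Tg at 15 mo and 3 mo and Wt at 15 mo and 3 mo, against 41.7%, 41.9%, 42.3% and 40.9% of all peaks. The window of 200 nt on each side of the stop codon held 21.2%, 21.1%, 18.8% and 16.9%, against 23.1%, 22.8%, 22.0% and 22.7%. The peaks were wider, with a median of 271 nt against 239 nt, and had a GC content of 58.5% against 53.2%. GGAC was found in 74.5% of the 365 peaks and in 74.6% of all 54326. DRACH, which includes GGAC followed by A, C or T, was found in 94.0% and 95.8%, searched on the transcribed strand only. With peaks between the width quartiles of the 40 genes alone, GGAC was in 77.8% of their peaks and in 80.5% of all peaks of those widths. Within the 40 transcripts, GGAC occurred 0.632 times per 100 nt inside sites and 0.415 times outside them, and DRACH 1.93 and 1.91 times. The GC content was 59.3% inside sites and 51.1% outside, and its part in the GGAC difference was not tested.

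The differential lists, made by the authors with exomePeak, give each region that differed between groups a log2 fold change and an FDR. A region counts as gained or lost here where its FDR was 0.05 or lower and its fold change 1.2 or higher. The 4 comparisons share groups, since each group enters 2 of them, so a region that appears in several is not independent evidence. Over the 4 comparisons 15 of the 40 genes had 42 such calls. The 19 gained calls, on 11 genes, were small, with log2 fold changes of 0.27 to 0.48 and a median of 0.33. The 23 lost calls, on 13 genes, reached further, between −1.03 and −0.28 with a median of −0.62.

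In aSyn Tg mice, 15 mo against 3 mo, more of these genes lost m6A than gained it. Of 35 genes with a peak in either group and an input count of at least 50, 11 had a lost region (31.4%), where 3.41% of all 6099 genes with a peak and 6.20% of 1323 comparison genes did. The gained ones were 4 (11.4%), where 1.8% of all genes and 3.10% of comparison genes had a gained region. More sites per transcript give more chances of a call, and the part of this in the difference was not tested. The comparison genes have mean input counts of 493 to 1317 reads, while the 35 genes were not held to these limits. Of the lost ones, Shank1, Ppp1r9b, Iqsec1, Iqsec3 and Dlg4 lay above, and Begain, Camk2a, Ctnnd2, Dlgap3, Git1 and Shank3 within. The part of input count was not tested either. The list of genes was proposed with results of these data known, so the shares are a description.

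The largest losses were on Camk2a in the 3′ UTR (log2 −0.92, FDR 0.002), on Ctnnd2, a delta-catenin of dendritic spines (−0.92, FDR 7.9e-11), and on Git1, an Arf GTPase-activating scaffold (−0.91, FDR 0.028). The Camk2a and Git1 regions had no listed peak in either group. The Dlg4 region, centred in the 5′ UTR, had −0.75 (FDR 4.6e-05) and no listed peak either. On the Shank genes, 2 regions of the Shank1 3′ UTR had −0.71 and −0.61, and the Shank3 coding regions whose windows are printed above had −0.48 and −0.62. Iqsec1 had −0.71 (FDR 7.8e-08), Iqsec3 −0.68, Dlgap3 −0.52, Ppp1r9b −0.41 and Begain −0.31. On the same transcripts, other regions were gained: Iqsec1 in the 3′ UTR (0.33, FDR 0.0056) and Begain further towards its stop codon (0.34, FDR 0.011). Camk2g (0.28) and Ppp1r9a, or neurabin, with 2 regions (0.29 and 0.33), made up the rest of the gains.

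The gained regions held strong peaks and the lost ones weak peaks. All 5 gained regions had a peak in both lists, with the stronger of the 2 between 4.45 and 15.1 and a median of 7.93. Of the 13 lost regions, 4 had a peak in both lists, 4 in aSyn Tg at 3 mo alone and 5 in neither. Those in neither were on Camk2a, Git1, Dlg4, Begain and Shank1 (the Shank1 region with −0.71). Where a peak was listed, the stronger one was between 2.19 and 7.10 with a median of 3.47. Over all genes the medians were 5.44 for 127 gained and 3.04 for 247 lost regions, and 113 of the 247 had a peak in aSyn Tg at 3 mo alone and 0 in aSyn Tg at 15 mo alone. The list of aSyn Tg at 15 mo bears no group name in its file and was taken as that group by elimination.

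At 3 mo, aSyn Tg against Wt gave gains without losses. A gained region was found on 7 of 35 genes (20%), where 3.69% of all 6183 genes with a peak and 6.6% of 1333 comparison genes had one, and a lost region on 0 of 35, where 0.0485% of all genes had one. Ppp1r9b gained in the 3′ UTR (0.48, FDR 0.0005) and in coding sequence (0.27), the Shank1 3′ UTR and the Dlg1 5′ UTR gained 0.45 each, and Ctnnd2 gained 0.42. Iqsec1 had 0.42, Agap2, which acts on Arf GTPases and binds Homer, 0.34, and Iqsec3 0.34 (FDR 4.1e-08). On Ctnnd2, Iqsec1, Ppp1r9b and Shank1 these regions overlap those lost with age in aSyn Tg mice. Both comparisons use aSyn Tg at 3 mo, so its value enters the gain and the loss. Iqsec1, Iqsec3, Ppp1r9b and Shank1 lay above the input counts of the comparison genes, and Agap2, Ctnnd2 and Dlg1 within them. The fold enrichment of the Ctnnd2 site was 2.74 in aSyn Tg at 3 mo, 2.36 in Wt at 15 mo and 1.92 in Wt at 3 mo, and the site was not listed in aSyn Tg at 15 mo.

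At 15 mo, aSyn Tg against Wt gave mostly losses. A lost region was found on 8 of 35 genes (22.9%), where 3.31% of all 6187 genes and 6.46% of 1331 comparison genes had one, and a gained region on 1, Camk2g (0.30, FDR 0.02), where 1.12% of all genes and 2.03% of comparison genes had one. The largest loss was on Ppp1r9a in coding sequence (−1.03, FDR 0.016), at a region with no listed peak in either group. Camk2a lost in 2 regions of its 3′ UTR (−0.75 and −0.39). Dlg4 lost in a region centred in the 5′ UTR (−0.68, FDR 0.001) and Ctnnd2 at the same coding region as with age (−0.64). Shank3 had −0.59 and −0.51, Begain −0.52 (FDR 1e-05), Dlgap3 −0.46 and Agap2 −0.28. Camk2g, Dlg4 and Ppp1r9a lay above the input counts of the comparison genes, and the other called genes within them. The 10 lost regions had a stronger peak of 1.5 to 12.9 where one was listed, with a median of 3.10. Of them, 4 had a peak in Wt alone and 0 in aSyn Tg alone. A further 3 had a peak in neither, those on Ppp1r9a, Dlgap3 and Camk2a (the Camk2a region with −0.75).

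In Wt mice, 15 mo against 3 mo, a region was gained on 5 of 34 genes (14.7%), where 4.64% of all 6271 genes with a peak and 8.82% of 1338 comparison genes had one, and lost on 0 of 34, where 0.0159% of all genes had one. Begain gained most (0.40, FDR 3.2e-06), at the coding region that was also gained with age in aSyn Tg mice. Shank1 gained 0.33 (FDR 7.9e-24) over a region that ran from coding sequence into the 3′ UTR. Iqsec1 gained 0.33 in coding sequence, Dlg4 0.30 at its stop codon and Ppp1r9b 0.27. Of these genes, Begain alone lay within the input counts of the comparison genes, and the others lay above them. All 5 regions had a peak in both lists. The difference between the genotypes in their change with age was not tested, because no value for single animals is in the lists.

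**Figure D3:**
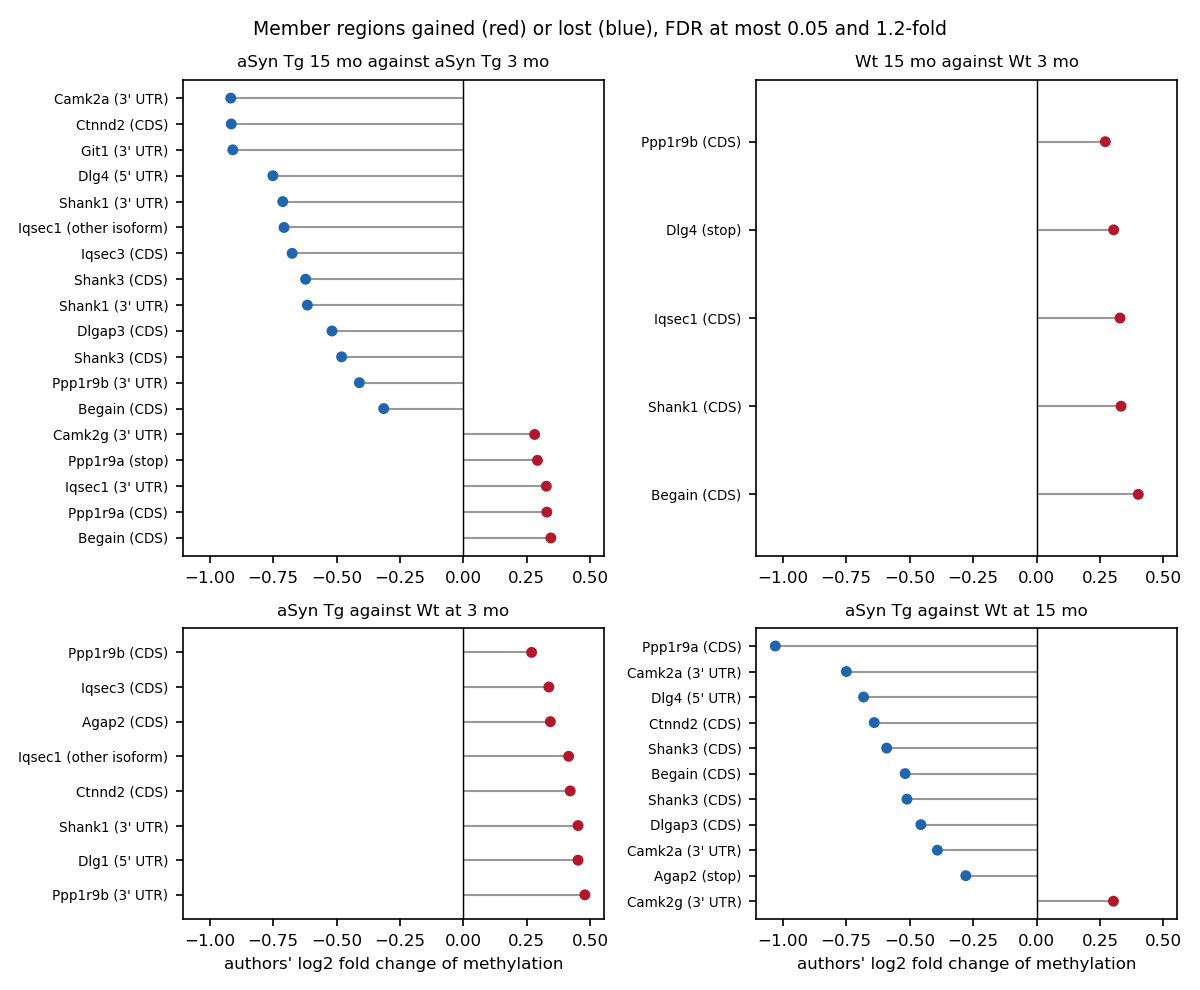
The authors' log2 fold change of methylation for each gained (red) or lost (blue) region of the 40 genes in the 4 comparisons. Brackets give the position of the region's centre on the transcript. There CDS is coding sequence, stop the window at the stop codon and other isoform an exon outside the transcript used. The panel of aSyn Tg 15 mo against aSyn Tg 3 mo holds 13 lost and 5 gained regions, that of aSyn Tg against Wt at 15 mo 10 lost and 1 gained, and the other panels hold gains alone.

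A further 50 postsynaptic genes, among them glutamate receptor subunits, neuroligins and kinases, were listed as context. Between 37 and 43 of them had a peak in a group. Among those with a call in aSyn Tg mice with age, Gria2 gained and Nlgn2 lost a region. At 3 mo Cacng2 and Grin1 gained in aSyn Tg against Wt, at 15 mo Gria2 and Rasgrf1 gained, and in Wt with age Ppp3ca gained. In aSyn Tg against Wt at 15 mo, 39 of these 50 genes had a peak and 0 had a lost region, by the authors' FDR. Among all genes with a peak, 3.31% had a lost region in that comparison.

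RNA was measured in the input libraries, kept before the immunoprecipitation. Depth was 2161940 to 9185647 reads per library, and lowest in library 5 of aSyn Tg at 15 mo. There the top 10 genes held 10.01% of reads, against 5.45% to 7.89% elsewhere. Midbrain dopaminergic markers summed to 294 to 564 CPM (reads in each 1e6 of the library) in all libraries. Markers of forebrain excitatory neurons, of which 6 of 7 were in the table, were low in most libraries but 358 CPM in Wt 15 mo library 2, where aSyn Tg at 15 mo had 27.2 to 46.6 CPM, aSyn Tg at 3 mo 45.4 to 135 CPM, and Wt at 3 mo 27.6 to 109 CPM. Thalamic markers were between 594 and 1266 CPM in Wt at 15 mo, highest in library 1, and between 454 and 816 CPM elsewhere. Astrocyte markers summed to 1122 to 1619 CPM in aSyn Tg at 15 mo and to 893 to 1163 CPM in the other groups. Microglial markers summed to 157 to 239 CPM in aSyn Tg at 15 mo and 125 to 131 CPM in aSyn Tg at 3 mo, with 147 to 171 CPM in Wt at 15 mo and 132 to 143 CPM in Wt at 3 mo. In aSyn Tg mice both lists were higher at 15 mo without overlap, and their part in the RNA and m6A differences of that group was not tested. In such tissue RNA, fewer cells of a type and less RNA per cell cannot be told apart.

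The 40 genes spanned a wide range of RNA. Per kb of transcript, the highest levels were those of Ppp1r9b (133 CPM per kb), Cyfip2 of the WAVE complex (108), Dlg4 (99.1), Camk2b (95.9) and Camk2g (74.6), and the lowest those of Homer3 (3.42), Akap5 (6.17) and Synpo (6.84). No comparison of RNA called any of them. The test was edgeR's quasi-likelihood test on read counts, a call needing an adjusted p of 0.05 or lower over all genes and a fold change of 1.2 or more, and DESeq2 and limma also called 0 in each comparison.

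In aSyn Tg mice, 15 mo against 3 mo, 0 of 40 genes were called, where 0.918% of 11007 genes were, and 3 were higher and 1 lower at an unadjusted p under 0.05. The median log2 fold change was 0.03, against 0.00 over all genes. The libraries of the 2 ages did not overlap for 3 genes, Shank1, Synpo and Baiap2, where 3.48% of all genes did not. Shank1 had 543, 519, 548, 599 and 537 CPM in aSyn Tg at 15 mo, against 672, 616, 651.5, 646 and 607 CPM in aSyn Tg at 3 mo. All 5 libraries at 15 mo thus lay below all 5 at 3 mo, with a log2 fold change of −0.21 (SE 0.05) and an adjusted p of 0.059. Synpo, which encodes synaptopodin of the spine apparatus, had 37.3, 41.8, 35.3, 34.2 and 35.3 CPM at 15 mo, against 29.1, 28.3, 30.5, 32.3 and 31.8 CPM at 3 mo. Every value at 15 mo was the higher one, and the log2 fold change was 0.29 (SE 0.07, adjusted p = 0.11). Camk2a had a log2 fold change of 0.40 with overlapping libraries (adjusted p = 0.20). Without aSyn Tg 15 mo library 5, the one of low depth, 4 genes were higher and 3 lower at an unadjusted p under 0.05, and without aSyn Tg 3 mo library 1 these were 5 and 1.

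In Wt mice, 15 mo against 3 mo, 0 of 39 genes were called, where 0.361% of 10798 genes were, but 10 were higher and 4 lower at an unadjusted p under 0.05. These are 25.6% and 10.3%, against 7.94% and 7.70% of all genes. The median was 0.10, against 0.00 over all genes, and 30 of the 39 were higher. Libraries did not overlap for 6 genes, Shank1, Camk2d, Iqsec3, Cyfip2, Abi1 and Dlgap1, where 5.21% of all genes did not. Camk2d, a CaM kinase II subunit, had 207, 194.5, 188.5, 207 and 194.5 CPM in Wt at 15 mo, against 168, 178, 170.1 and 167 CPM in Wt at 3 mo. Every library at 15 mo was above every library at 3 mo (log2 0.22, SE 0.04, adjusted p = 0.053). Shank1 had 618, 597, 518, 539 and 502 CPM at 15 mo, against 645.5, 695, 649 and 679 CPM at 3 mo, again without overlap (log2 −0.27, SE 0.06, adjusted p = 0.071). Iqsec3 was also lower in each library at 15 mo, with 337 to 369.9 CPM in Wt at 15 mo against 383.8 to 401.5 CPM in Wt at 3 mo (log2 −0.15, adjusted p = 0.10).

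Camk2a had the largest value of this comparison and the widest spread. It had 350, 629, 171, 273 and 261 CPM in Wt at 15 mo, against 156, 220, 192 and 151 CPM in Wt at 3 mo (log2 0.91, SE 0.28, adjusted p = 0.16). The highest value is that of library 2, the library with 358 CPM of forebrain markers, and without it the log2 fold change was 0.56. Without that library 7 genes were higher and 5 lower at an unadjusted p under 0.05, and the median was 0.04. With 1 factor of unwanted variation added to the fit, 5 of the 39 were called, Camk2a, Kalrn, Dlgap1 and Lrrc7 higher and Shank1 lower.

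**Figure D4:**
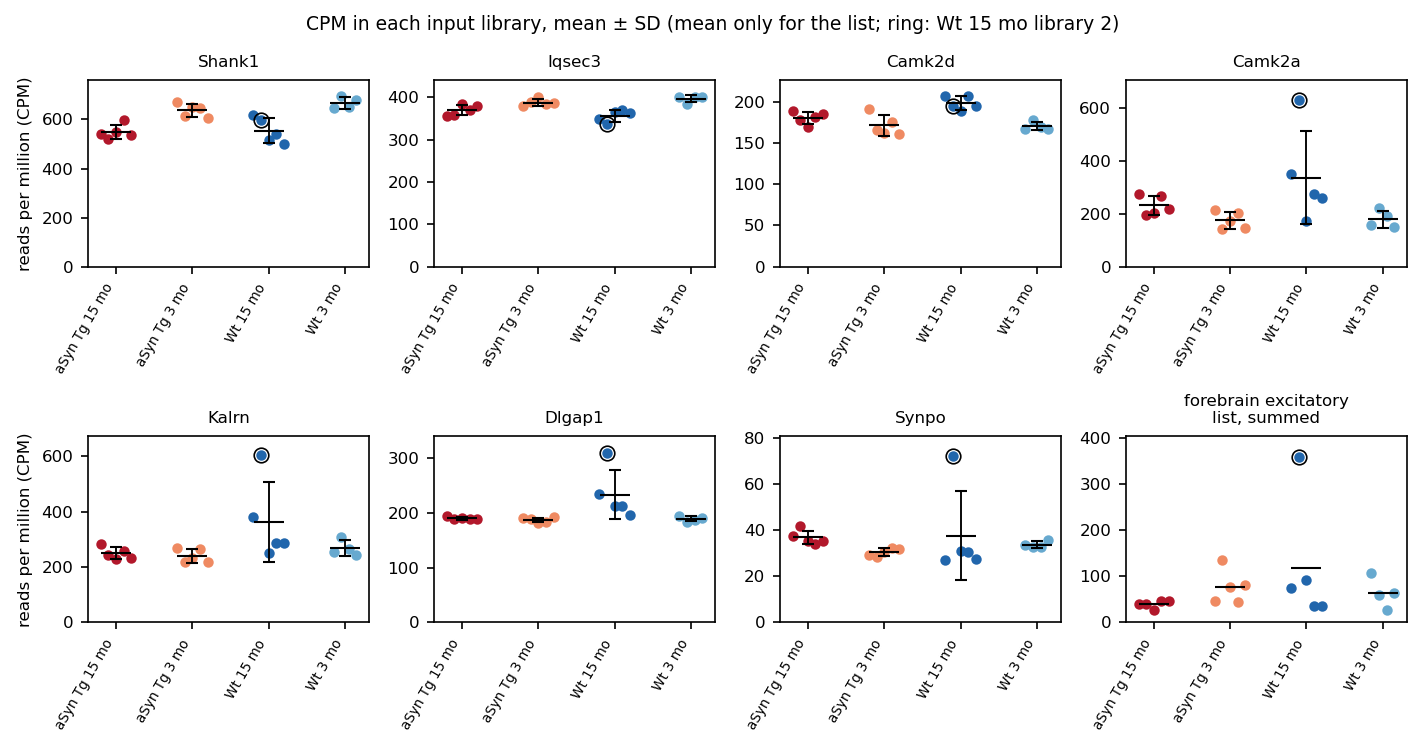
CPM in each input library by group for 7 of the genes and for the summed forebrain excitatory markers, with the mean and, for genes, the SD as bars and Wt 15 mo library 2 ringed. Shank1 is lower at 15 mo in both genotypes without overlap, while the ringed library is the highest of all for Camk2a, Kalrn, Dlgap1, Synpo and the marker list.

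At 3 mo, aSyn Tg against Wt, 0 of 39 genes were called, where 0.835% of 11376 genes were, with 3 higher and 4 lower at an unadjusted p under 0.05. The median was −0.01, against 0.00 over all genes. Libraries did not overlap for 5 genes, Baiap2, Git1, Ppp1r9b, Gphn and Synpo, all lower in aSyn Tg, where 4.18% of all genes did not. Baiap2, an adaptor protein of spine actin, had 43.1, 35.7, 39.0, 43.2 and 43.2 CPM in aSyn Tg, against 51.8, 46.8, 49.0 and 48.3 CPM in Wt. It had a log2 fold change of −0.27 (SE 0.07) and an adjusted p of 0.077. Without aSyn Tg 3 mo library 5, 3 genes were higher and 8 lower at an unadjusted p under 0.05. Abi2 of the WAVE complex had 0.14 with overlapping libraries (adjusted p = 0.19).

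At 15 mo, aSyn Tg against Wt, 0 of 39 genes were called, where 0.22% of 10473 genes were. At an unadjusted p under 0.05, 1 was higher and 11 were lower, which is 2.56% and 28.2%, against 5.98% and 5.24% of all genes. The median was −0.10, against 0.01 over all genes, and 33 of the 39 were lower. Libraries did not overlap for 1 gene, Dlgap1, where 2.76% of all genes did not. Dlgap1 had 195, 188, 189.7, 189.5 and 188.1 CPM in aSyn Tg, against 234.6, 308.5, 212.2, 212 and 196.7 CPM in Wt (log2 −0.29, adjusted p = 0.31). The aSyn Tg libraries were close together and the Wt libraries spread upwards.

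Homer2 and Kalrn also had a wider spread in Wt than in aSyn Tg libraries at 15 mo, while Camk2d and Cyfip2, both lower in aSyn Tg at an unadjusted p under 0.05, had similar SDs in both groups. The SD of Camk2d was 7.28 CPM in aSyn Tg and 8.41 CPM in Wt, and that of Cyfip2 40.1 CPM in aSyn Tg and 47.2 CPM in Wt. Homer2 had 43.4, 44.0, 43.85, 49.25 and 41.5 CPM in aSyn Tg, against 65.6, 67.5, 54.3, 49.3 and 45.1 CPM in Wt (log2 −0.34, SE 0.11, adjusted p = 0.26). Kalrn, an exchange factor for small GTPases in spines, had 284.5, 244, 230.0, 259 and 233 CPM in aSyn Tg, against 382, 605, 249.9, 286 and 287 CPM in Wt (log2 −0.53, adjusted p = 0.34), and its groups overlap. Begain was the single gene higher at an unadjusted p under 0.05 (log2 0.17, adjusted p = 0.39). Without Wt 15 mo library 2 the counts were 1 higher and 5 lower and the median −0.04, and the number lower was 6 without aSyn Tg 15 mo library 3 or 4 and 7 without library 6 of that group. With 2 factors of unwanted variation 6 genes were called lower, Kalrn, Dlgap1, Cnksr2, Homer2, Lrrc7 and Camk2a.

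The interaction of genotype and age, fitted over all 4 groups, called 0 of 39 genes, where 0.00917% of 10907 genes were called. At an unadjusted p under 0.05, 1 was higher and 7 were lower, and the median was −0.08, against 0.00 over all genes, where a negative value means a change with age that was lower in aSyn Tg than in Wt. Abi1 had −0.25 (adjusted p = 0.34), Homer2 −0.39 and Anks1b −0.33. Without Wt 15 mo library 2 the counts were 1 and 4 and the median −0.02, while without Wt 15 mo library 3 they were 1 and 13, and without Wt 3 mo library 2 they were 1 and 4. The 50 other postsynaptic genes showed the like in Wt: 15 were higher and 2 lower with age, and in aSyn Tg against Wt at 15 mo 3 were higher and 10 lower, at an unadjusted p under 0.05, with 0 called by edgeR in any comparison.

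**Figure D5:**
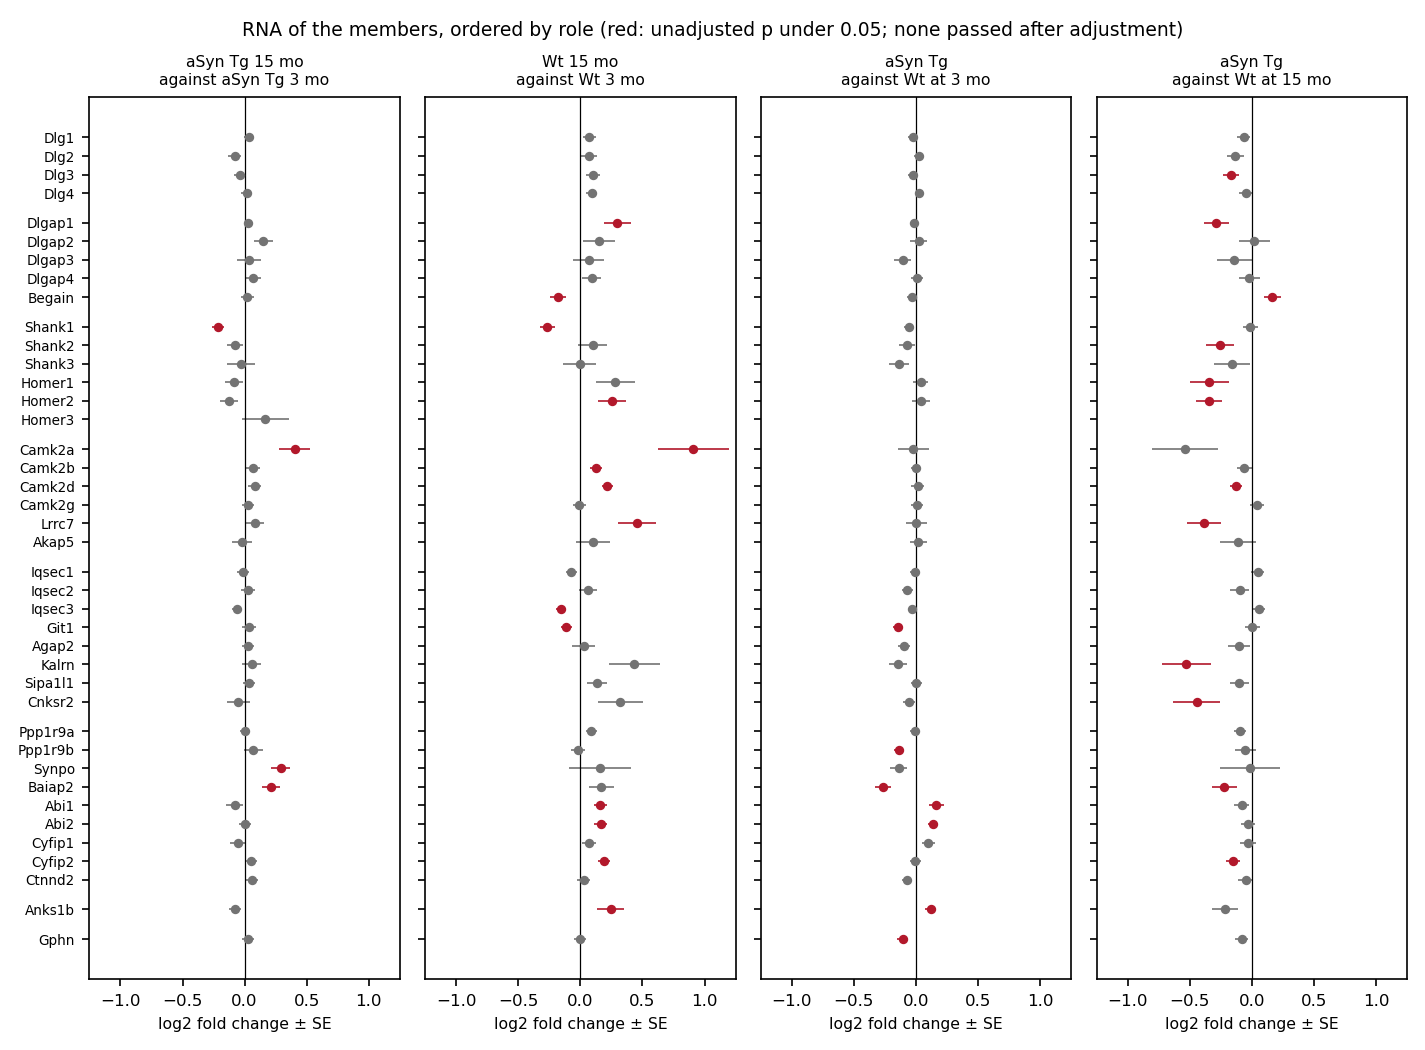
Log2 fold change of RNA with its SE for each of the 40 genes in the 4 comparisons (edgeR), ordered by role, with genes at an unadjusted p under 0.05 in red. Points lie mostly right of 0 in Wt 15 mo against Wt 3 mo and mostly left of 0 in aSyn Tg against Wt at 15 mo, and none passed after adjustment.

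No gene with a gained or lost region was called in RNA in the same comparison. RNA was counted in the input and m6A is a ratio over input, so they are not separate measurements. The part of this in what follows was not tested. The 11 genes with a region lost in aSyn Tg mice with age had RNA log2 fold changes of −0.21 to 0.40, with a median of 0.02, 7 higher and 4 lower. The 7 genes with a region gained in aSyn Tg against Wt at 3 mo were all lower in RNA, by −0.14 to −0.01, where 23 of all 39 genes were lower. In Wt mice with age, 4 of the 5 genes with a gained region were lower in RNA and 1 higher, with a range of −0.27 to 0.09 and a median of −0.07, where 30 of the 39 genes were higher. The 8 genes with a region lost in aSyn Tg against Wt at 15 mo had −0.54 to 0.17 with a median of −0.10, which is that of all 39 genes. The smallest adjusted p of RNA among the genes with a gained or lost region was 0.059, that of Shank1 in aSyn Tg mice with age. Camk2a, whose 3′ UTR regions lost m6A in both comparisons of aSyn Tg at 15 mo, had RNA differences of opposite sign in them, 0.40 against aSyn Tg at 3 mo and −0.54 against Wt at 15 mo, neither of them called.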

How the data were processed

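RNA of midbrain was measured as input and m6A-immunoprecipitated libraries. In the methods, Cutadapt trimmed the reads, STAR placed them on mm10, featureCounts counted them per gene and the authors tested RNA with DESeq2 and RUVseq factors, while the labels' processing notes name mm9 and DESeq. Of 54206 peaks, 54089 lay inside their gene in GENCODE M21 (GRCm38), so mm10 was used. The signal values deposited per library are counts divided by a size factor, and whole read counts were recovered from the deposited values in 100% of 450475 cases (tolerance 0.01). The tables also hold the authors' fold changes and p-values of RNA, which were not used, and 2 library columns of the larger table were not used, since the other table gave those libraries. Peaks come from MeTPeak, and the fold enrichment deposited with each is a ratio, signal after immunoprecipitation over that of the input. The log2 fold change and the score, a log10 FDR, of a differential region are those the authors made with exomePeak, listed with 1 value for a comparison.

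RNA was tested with edgeR 4.0.16 (TMM, quasi-likelihood, Benjamini-Hochberg) in R 4.3.3 on genes whose mean normalized count reached 50, fitting the 2 groups of a comparison (all 4 for the interaction). The test had been planned for raw counts and was run on the recovered ones. The script was tested on simulated data. Alternatives used DESeq2 1.42.0, limma 3.58.1, other filters and scalings, factors of unwanted variation and each library left out. Where the labels do not tie a library to an animal, p-values measure the spread between these samples. For 11 of the 40 genes, exons overlap a gene on the opposite strand, among them Shank1, Shank3, Dlgap1 and Iqsec1, and reads of the 2 cannot be told apart unless counting used the strand, not given in the sources used here. Peaks and sites were placed by their centre on 1 transcript per gene, so a wide one can reach beyond the part named. Sites were joined by an overlap of at least 1 base.

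Members and lists were chosen with earlier results of these data known. Genes named for RNA are the 3 with the smallest p in each direction of a comparison, and for m6A those with a gained or lost region, the 8 with the strongest peak, those with most sites and those with none. Akap5, Dlg2, Dlg3, Camk2b, Homer3 and Kalrn are named beside these, chosen after their values were seen. Python 3.11.15, pandas 2.3.3, NumPy 2.4.6 and matplotlib 3.10.9 were used. Some results of the series are not reported here.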

Additional observations from a re-analysis of the deposited data

Results flagged for a closer look

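A library that stood apart from the rest of its group was found in 4 of 68 sets of libraries, formed by 17 of the named genes in 4 groups. Chance alone marks about 1 in 20 such sets. Synpo had 72.1 CPM in Wt 15 mo library 2, against 26.9 to 31.1 CPM in the other Wt libraries at 15 mo, and this is the library with 358 CPM of forebrain excitatory markers. Ppp1r9b had 739.8 CPM in aSyn Tg 15 mo library 5, the library of lowest depth, against 522 to 577.5 CPM in the others. Iqsec3 had 383.8 CPM in Wt 3 mo library 3, against 400.0 to 401.5 CPM in the others, and Dlgap1 had 195 CPM in aSyn Tg 15 mo library 2, against 188 to 189.7 CPM.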

How the results depend on the processing

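The count of called postsynaptic genes in RNA stayed at 0 in most alternatives, and 139 of 154 recomputed counts lay within 1.5 times the main one. The exceptions for RNA were the following. In aSyn Tg mice with age, 2 factors of unwanted variation gave 1 call (Synpo) and the library number as a replicate block 1 call (Camk2a). In Wt mice with age, 1 factor gave 5 calls, 2 factors 6, and leaving out a library 0 to 3, the 3 being Lrrc7, Camk2a and Anks1b without Wt 15 mo library 3. In aSyn Tg against Wt, 1 factor gave 1 call at 3 mo (Baiap2) and 2 factors 6 calls at 15 mo, and the interaction gave 2 (Lrrc7 and Anks1b) with 2 factors. The cause was not tested. Correlations of deviations between libraries of the same number ran from −0.28 to 0.33 over the comparisons. In aSyn Tg against Wt at 15 mo they were 0.17, 0.33, 0.20 and −0.05. So few values cannot decide whether the numbers pair the libraries. The block changed no other call of these genes. Over all genes it called 43, 4, 44, 39 and 3, against 45, 12, 74, 26 and 4 for the same libraries without it, a comparison added after the data were seen. Calls over all genes were 101, 39, 95, 23 and 1 in the order aSyn Tg with age, Wt with age, aSyn Tg against Wt at 3 mo and at 15 mo, and interaction. They were 159, 118, 106, 87 and 23 with DESeq2, 256, 57, 157, 41 and 9 with no limit on the count, 182, 318, 187, 34 and 12 with 1 factor, and 229, 461, 220, 257 and 145 with 2 factors. One fit over all 4 groups called 136, 80, 12 and 107, and a count limit of 20 raised 101 to 173. For m6A, gained genes fell to 0 at a fold change of at least 1.5 in all 4 comparisons, while lost genes were 8 in aSyn Tg mice with age and 5 in aSyn Tg against Wt at 15 mo. At an FDR of at most 0.01, gained genes were 1 in aSyn Tg mice with age and 0 in aSyn Tg against Wt at 15 mo. No named result changed sign in these alternatives. Depth was lowest in aSyn Tg 15 mo library 5, with 2161940 reads. The m6A lists give no spread between animals.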
